A study of Homo sapiens with 12 samples.

Results

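The genes described here are 8 secreted defence proteins: SAA1 and SAA2, LCN2, C3 and CFB, WFDC2, SLPI and PI3. They were picked by name, because their measured levels in these libraries were known to differ between the groups, and they are 8 of the 61044 rows of the deposited table. Their levels are therefore a description and carry no test. Each member had 1 row, found through its Ensembl identifier, and SAA1 and SAA2 were also summed. The RNA came from SCC-15, an established cell line of human oral squamous cell carcinoma. One group (NC) carried a negative-control short hairpin RNA (shRNA-NC), and 3 groups (shRNA1, shRNA2 and shRNA3) each carried a different hairpin against FMOD, the gene of the matrix proteoglycan fibromodulin. Cells were harvested at 48 hours, and 12 libraries were sequenced, 3 per group. All groups share the one line and its culture medium with fetal bovine serum, and the labels do not say whether the depleted cells are clones or pools. The series asks which genes change when FMOD is depleted.

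FMOD itself gave 2, 2 and 3 counts in the NC libraries and 0 in all 9 shRNA libraries, so the check of the target rests on very few reads. Totals ran from 17287017 to 19567289 estimated counts per library. Replicates correlated at 0.973 to 0.985 (Pearson's r of log2 CPM, counts scaled to a common library size), except that shRNA3 library 3 correlated with shRNA3 libraries 1 and 2 at 0.907 and 0.903. All 9 squamous epithelial markers reached at least 1 CPM on average in every group, and their summed level lay between 2286 and 3249 CPM. Within that sum KRT5 averaged 1008 CPM in NC and 21.4 (shRNA1), 80.1 (shRNA2) and 74.8 CPM (shRNA3). CDH1 averaged 322 CPM in NC and 38.2, 53.4 and 66.0 CPM, and TP63 was also lower on average with every hairpin. KRT14, KRT6A, KRT17 and DSP averaged higher with every hairpin, for example DSP at 288 CPM in NC and 807, 978 and 669 CPM. SFN and EPCAM differed in both directions. The hepatocyte markers ALB, APOA1, TTR and APOB summed to at most 0.364 CPM in any library, and the leukocyte gene PTPRC had at most 9 counts. The summed leukocyte list ran from 58.7 to 76.4 CPM in NC and from 44.4 to 237 CPM across the shRNA libraries, most of it CD68. The fibroblast list summed to between 56.7 and 59.6 CPM in NC and between 15.5 and 86.5 CPM across the shRNA libraries, and the endothelial list to between 17.6 and 23.1 CPM and between 3.88 and 13.2 CPM. Most of the fibroblast sum was COL1A1, at 41.7 CPM in NC and 17.3, 44.6 and 65.8 CPM, while COL1A2, PDGFRB and LUM averaged lower with every hairpin. In the endothelial list CDH5 averaged 17.3 CPM in NC and 1.94, 2.53 and 1.35 CPM, and VWF was also lower. PECAM1 averaged higher, at 0.133 CPM in NC and 2.60, 4.75 and 8.73 CPM. Whether these differences take part in the levels given below was not tested. In bulk RNA, fewer cells that express a gene and less RNA per cell cannot be told apart.

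Acute-phase proteins are made in bulk by the liver during infection and injury, and also locally by epithelia, mostly under IL-1, IL-6, TNF and IL-17 through the transcription factors NF-kB, STAT3 and C/EBP. SAA1 and SAA2 encode serum amyloid A, LCN2 encodes a lipocalin that withholds iron from bacteria, and C3 and CFB encode the central protein and the protease of the alternative complement pathway. WFDC2, SLPI and PI3 belong to the whey acidic protein (WAP) family, small disulphide-bonded domains that often inhibit proteases. SLPI and elafin, the product of PI3, block neutrophil elastase at mucosal surfaces and also act on microbes, and WFDC2 encodes HE4, which is used as a tumour marker in serum.

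The 8 genes split into 6 that were lower with every hairpin and 2 that were higher. For SAA1, SAA2, LCN2, C3, CFB and WFDC2, all 9 shRNA libraries lay below every NC library, a pattern that 25.8% of the 17532 genes tested showed. For SLPI and PI3 all 9 lay above every NC library, as they did for 19% of the genes tested. These shares are given as background only, since the genes were chosen on this contrast. All 8 passed the filter on low counts, WFDC2 through its NC libraries alone. The 3 hairpins are set against the same 3 NC libraries, so their differences from NC are not independent of one another. Values below are CPM scaled by TMM (trimmed mean of M-values, edgeR's factor for RNA composition), in the order of libraries 1, 2 and 3.

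**Figure D1:**
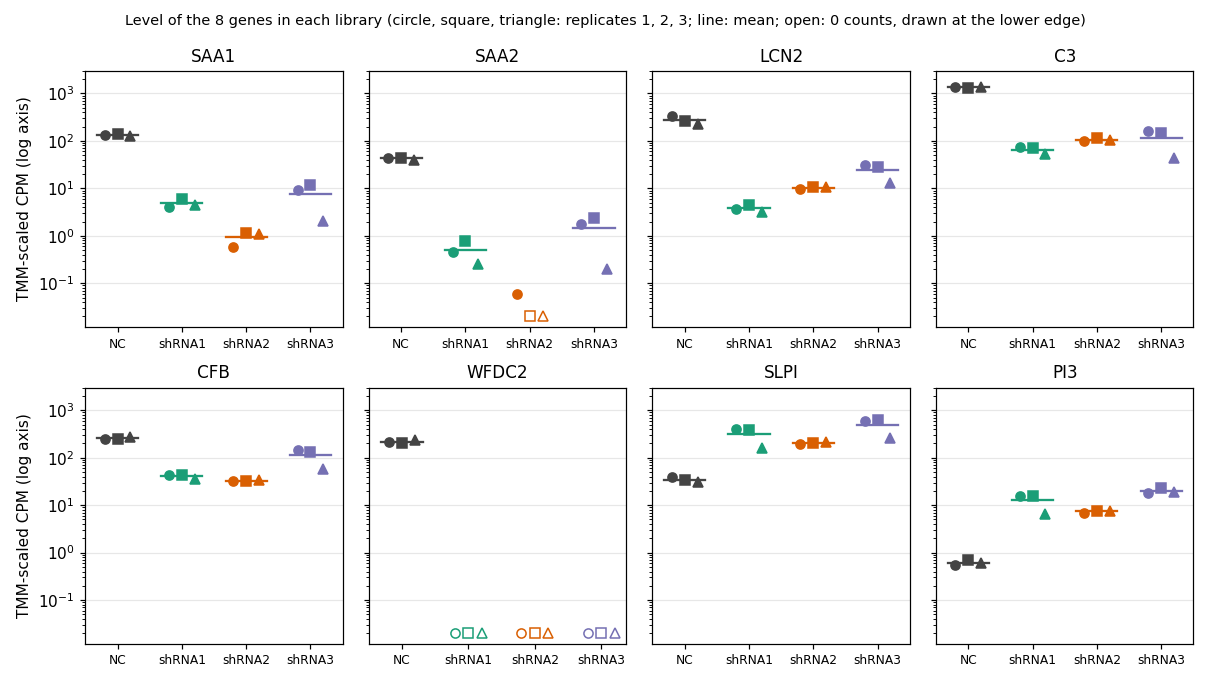
TMM-scaled CPM on a log axis for the 8 genes in the 12 libraries, by group; circles, squares and triangles are replicates 1, 2 and 3, lines are group means, and open symbols at the lower edge are libraries with 0 counts. SLPI and PI3 are the genes whose 9 shRNA libraries all lie above NC, WFDC2 has 0 counts in all 9, and shRNA3 library 3 sits below its replicates for SAA1, SAA2, LCN2, C3, CFB and SLPI.

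SAA1 (ENSG00000173432, chromosome 11, 18266174 to 18269977, plus strand, GRCh38) and SAA2 (ENSG00000134339, chromosome 11, 18239223 to 18248643, minus strand) are near-identical copies. Over 369 coding bases they differ at 11, an identity of 97.0%, and 10 of the 11 lie in the 150 coding bases 175 to 324 (counted from 1 at the A of the start codon). That stretch is shown because it holds most of the coding bases that differ. Differences outside the coding sequences were not counted. Capitals mark the bases that differ:
SAA1: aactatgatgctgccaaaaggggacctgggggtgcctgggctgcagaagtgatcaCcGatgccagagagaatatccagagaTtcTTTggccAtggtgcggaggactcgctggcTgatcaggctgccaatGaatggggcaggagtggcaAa
SAA2: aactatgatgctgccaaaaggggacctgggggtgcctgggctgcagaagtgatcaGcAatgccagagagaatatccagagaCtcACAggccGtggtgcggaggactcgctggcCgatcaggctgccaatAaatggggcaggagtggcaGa

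Of all stretches of 50 bases in the SAA1 coding sequence, 42.8% also occur in the protein-coding transcripts of SAA2. Of those of 100 bases, 32.2% do. The way the authors' counting split such reads is not given in the sources used here. The levels of the single genes are thus uncertain, and the sum is the safer value, though not free of the split.

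SAA1 stood at 132, 137 and 128 CPM in NC, at 4.08, 6.05 and 4.49 with shRNA1, at 0.585, 1.13 and 1.11 with shRNA2, and at 9.04, 11.8 and 2.08 with shRNA3. The group means were 132 ± 4.38, 4.87 ± 1.04, 0.939 ± 0.307 and 7.64 ± 5.00 CPM (SD, n = 3 each). NC was thus 27.1, 141 and 17.3 times as high as shRNA1, shRNA2 and shRNA3. The edgeR log2 fold changes were -4.76 (SE 0.51), -7.12 (SE 0.59) and -4.13 (SE 0.49). The shRNA2 libraries were the lowest and lay apart from all others, though on only 10, 20 and 20 counts. The ranges of shRNA1 and shRNA3 overlapped.

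SAA2 showed the same order from a lower start, with 44.5, 44.1 and 40.1 CPM in NC, 0.447, 0.774 and 0.258 with shRNA1, and 1.78, 2.40 and 0.198 with shRNA3. Its NC mean of 42.9 ± 2.41 CPM was 87.0 times the mean of shRNA1 (edgeR log2 fold change -6.42, SE 0.70) and 29.4 times that of shRNA3 (-4.92, SE 0.65). The shRNA2 libraries held 1, 0 and 0 SAA2 counts against 2571 counts in the NC group. After TMM scaling of the library sizes the ratio of the group levels is 2272, with an exact (Clopper-Pearson) 95% interval from 407 to 89784 that covers counting error only.

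The summed SAA1 and SAA2 level was 175 ± 6.57 CPM in NC, 5.35 ± 1.24 with shRNA1, 0.959 ± 0.273 with shRNA2 and 9.12 ± 6.17 with shRNA3. These means were 32.7, 183 and 19.2 times below NC, and no shRNA library reached an NC library. SAA2 contributed 25.2%, 24.4% and 23.9% of the summed CPM in the NC libraries. Its share was 10.1%, 11.1% and 5.70% with shRNA1, 6.95%, 0% and 0% with shRNA2, and 16.4%, 17.05% and 9.26% with shRNA3, so it lay below NC in all 9 shRNA libraries. SAA2 also overlaps SAA2-SAA4, a readthrough transcript on the same strand that averaged 23.1 CPM in NC and 0.201, 0.116 and 0.343 CPM with the hairpins. With its counts added, NC averaged 198 ± 4.04 CPM and the ratios were 35.7, 184 and 20.9. With shRNA1 the sum of SAA1 and SAA2 was 91.08, 140.14 and 92.07 estimated counts, and 94, 143 and 98 with SAA2-SAA4 added. In NC neither sum was whole. Reads may thus be split with SAA2-SAA4 too, so the SAA2 share above is uncertain. In the 158 kb from the pseudogene SAA3P to SAA1, SAA2-SAA4 was the only one of 14 other genes that passed the filter, and 9 of the 14 had 0 counts everywhere.

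LCN2 (ENSG00000148346, chromosome 9, 128149071 to 128153455, plus strand, no overlapping gene) gave 330, 266 and 229 CPM in NC. It gave 3.73, 4.45 and 3.20 CPM with shRNA1, 9.47, 10.8 and 10.8 with shRNA2, and 30.9, 28.5 and 12.8 with shRNA3. Group means were 275 ± 51.0, 3.79 ± 0.630, 10.4 ± 0.768 and 24.0 ± 9.85 CPM (SD, n = 3), or 72.6, 26.6 and 11.4 times below NC. The edgeR log2 fold changes were -6.18 (SE 0.35), -4.73 (SE 0.32) and -3.52 (SE 0.30). All 4 groups lay apart in the order NC, shRNA3, shRNA2, shRNA1. LCN2 was lowest with shRNA1, whereas SAA1 and SAA2 were lowest with shRNA2.

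Sequence before the transcription start, from RefSeq (GRCh38.p14), was at hand for LCN2, CFB and WFDC2, 3 of the 8 members. The RefSeq starts of LCN2, CFB and WFDC2 lie downstream of the first base of the GENCODE gene given here, so part or all of each window overlaps an exon of a longer GENCODE transcript. The 250 bases before each RefSeq start were searched on both strands for 5 short motifs of factors tied to the acute-phase response or to transcription start: the NF-kB consensus, STAT (TTCNNNGAA), C/EBP (TTNNGNAA), AP-1 (TGANTCA) and the TATA box (TATAAA). LCN2 had an NF-kB match 175 to 166 bases before the start, a C/EBP match at 143 to 136 and an AP-1 match at 52 to 46. CFB had an NF-kB match at 112 to 103, a STAT match at 92 to 84 and a TATA box at 30 to 25. WFDC2 had a C/EBP match at 138 to 131. Of the 35116 promoters in the table, 9.96% held an NF-kB match, 6.57% a STAT match, 33.2% a C/EBP match, 6.57% an AP-1 match and 10.7% a TATA box. No 2 matches overlapped, and a match describes letters, not bound factors. The stretches that hold the matches are shown for 2 genes with different outcomes, LCN2 with counts left under every hairpin and WFDC2 with none, and, for CFB, for its first 2 matches. Capitals mark the matches:
LCN2, chr9:128149265-128149440, plus strand: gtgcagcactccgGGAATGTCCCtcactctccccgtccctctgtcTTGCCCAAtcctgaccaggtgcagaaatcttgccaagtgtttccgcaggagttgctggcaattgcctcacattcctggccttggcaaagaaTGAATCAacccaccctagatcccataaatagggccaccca
CFB, chr6:31945983-31946011, plus strand: GGGGCCCTCCcgcttggatgTTCCGGGAA
WFDC2, chr20:45469503-45469705, plus strand: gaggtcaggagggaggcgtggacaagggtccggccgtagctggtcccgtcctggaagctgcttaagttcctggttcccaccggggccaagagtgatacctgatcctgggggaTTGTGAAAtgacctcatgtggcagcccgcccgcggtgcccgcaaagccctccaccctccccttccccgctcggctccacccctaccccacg

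C3 (ENSG00000125730, chromosome 19, 6677704 to 6730562, minus strand), on which all complement pathways converge, had the most counts of the 8 genes in NC, at 1347, 1288 and 1363 CPM. It gave 74.0, 69.4 and 52.1 CPM with shRNA1, 101, 113 and 105 with shRNA2, and 162, 147 and 43.3 with shRNA3, all far below NC. Means were 1333 ± 39.8, 65.2 ± 11.5, 106 ± 6.18 and 117 ± 64.7 CPM, which are 20.4, 12.6 and 11.3 times below NC. The edgeR log2 fold changes were -4.35 (SE 0.41), -3.65 (SE 0.40) and -3.50 (SE 0.40). The shRNA2 libraries lay inside the range of shRNA3, and the shRNA1 libraries lay between shRNA3 library 3 and the rest. C3 overlaps GPR108 on the same strand, which averaged 96.1 CPM in NC and 42.8, 55.5 and 72.9 CPM with the hairpins.

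CFB (ENSG00000243649, chromosome 6, 31945650 to 31952084, plus strand) encodes factor B, which joins C3b to form the alternative-pathway convertase. Its values were 248, 245 and 270 CPM in NC, 44.2, 43.7 and 34.8 with shRNA1, 31.8, 32.6 and 34.4 with shRNA2, and 146, 129 and 58.7 with shRNA3. It showed the smallest difference from NC of the 6 lower genes with each hairpin, 6.21, 7.72 and 2.28 times below a mean of 254 ± 13.7 CPM. The other means were 40.9 ± 5.31, 32.9 ± 1.31 and 111 ± 46.2 CPM, and edgeR's log2 fold changes were -2.63 (SE 0.28), -2.95 (SE 0.28) and -1.19 (SE 0.26). The ranges of all groups lay apart, narrowly so between shRNA1 and shRNA2. CFB overlaps C2 and the gene model AL645922.1 on its own strand. AL645922.1 averaged 18.9 CPM in NC and 5.64, 4.77 and 9.70 CPM with the hairpins, and C2 at most 1.43 CPM in any group.

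WFDC2 (ENSG00000101443, chromosome 20, 45469706 to 45481532, plus strand, no overlapping gene) was present in NC at 218, 201 and 231 CPM, or 4085 to 4560 counts per library. Each of the 9 shRNA libraries had 0 counts. Against a floor of 3 counts per library, taken at the highest floor of each group, the NC mean of 217 ± 15.1 CPM was at least 1401, 1235 and 975 times as high as shRNA1, shRNA2 and shRNA3. It is the only one of the 8 genes with no count under any hairpin.

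SLPI (ENSG00000124107, chromosome 20, 45252239 to 45254564, minus strand, no overlapping gene) went the other way. NC had 39.3, 33.6 and 31.1 CPM, against 393, 386 and 160 with shRNA1, 199, 202 and 209 with shRNA2, and 601, 619 and 263 with shRNA3. Means were 34.7 ± 4.22, 313 ± 132, 203 ± 5.33 and 494 ± 201 CPM (SD, n = 3), or 9.03, 5.86 and 14.2 times NC. The edgeR log2 fold changes were 3.17 (SE 0.38), 2.55 (SE 0.37) and 3.83 (SE 0.39). NC lay apart below all hairpins, while shRNA3 and shRNA1 overlapped, as did shRNA1 and shRNA2.

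PI3 (ENSG00000124102, chromosome 20, 45174876 to 45176544, plus strand, no overlapping gene) was close to the limit of detection in NC, with 11 to 14 counts per library or 0.555, 0.689 and 0.608 CPM. It stood at 15.7, 15.7 and 6.45 CPM with shRNA1, 6.78, 7.72 and 7.58 with shRNA2, and 18.0, 23.3 and 18.6 with shRNA3. From a mean of 0.617 ± 0.0674 CPM in NC, the hairpin means of 12.6 ± 5.32, 7.36 ± 0.504 and 19.97 ± 2.90 CPM were 20.4, 11.9 and 32.4 times as high. The edgeR log2 fold changes were 4.34 (SE 0.36), 3.56 (SE 0.36) and 5.00 (SE 0.37). The shRNA3 libraries lay above all others, and shRNA1 and shRNA2 overlapped. SLPI and PI3 thus had the same order of group means, with shRNA3 highest, then shRNA1, shRNA2 and NC.

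The ratio of SLPI to PI3 counts was 70.9, 48.8 and 51.2 in the NC libraries and lay between 14.1 and 33.4 in the 9 shRNA libraries, so the ranges did not overlap. Within shRNA1 the ratio was 25.1, 24.6 and 24.9, although library 3 had 2.43 times less of both genes than the mean of its replicates. Within shRNA3 it was 33.4, 26.6 and 14.1, and there library 3 had 2.32 times less SLPI but 1.11 times less PI3.

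PI3, SLPI and WFDC2 lie on one 307 kb stretch of chromosome 20, in the cluster of WAP-domain genes at 20q13, yet WFDC2 had 0 counts in the libraries where SLPI and PI3 were higher. Of the 16 other genes with a row in that stretch, 7 passed the filter and 5 had 0 counts in every library. By edgeR's quasi-likelihood F test, adjusted over all 17532 genes by Benjamini-Hochberg at 0.05, 1 of the 7 rose with all 3 hairpins (DBNDD2) and 2 fell (MATN4 and SDC4). Over all genes tested, 16% rose and 19.7% fell with all 3. DBNDD2, between SLPI and WFDC2, went from 7.66 ± 0.937 CPM in NC to 35.8 ± 1.10, 44.8 ± 1.92 and 49.7 ± 11.4 CPM. It overlaps the readthrough SYS1-DBNDD2 on the same strand, which averaged 3.99 CPM in NC and 8.54, 5.14 and 3.85 CPM with the hairpins. SDC4, which encodes the cell-surface proteoglycan syndecan-4, went from 1126 ± 57.5 CPM to 434 ± 107, 227 ± 7.27 and 536 ± 269 CPM. MATN4 rests on 13 to 24 counts per NC library and at most 8 in any shRNA library. It passed the filter through NC alone and could hardly be called other than lower. The call for SDC4 was lost without NC library 2, and that for MATN4 in 5 of 18 alternatives, among them without NC library 1 or 2 or shRNA3 library 1 or 3.

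**Figure D2:**
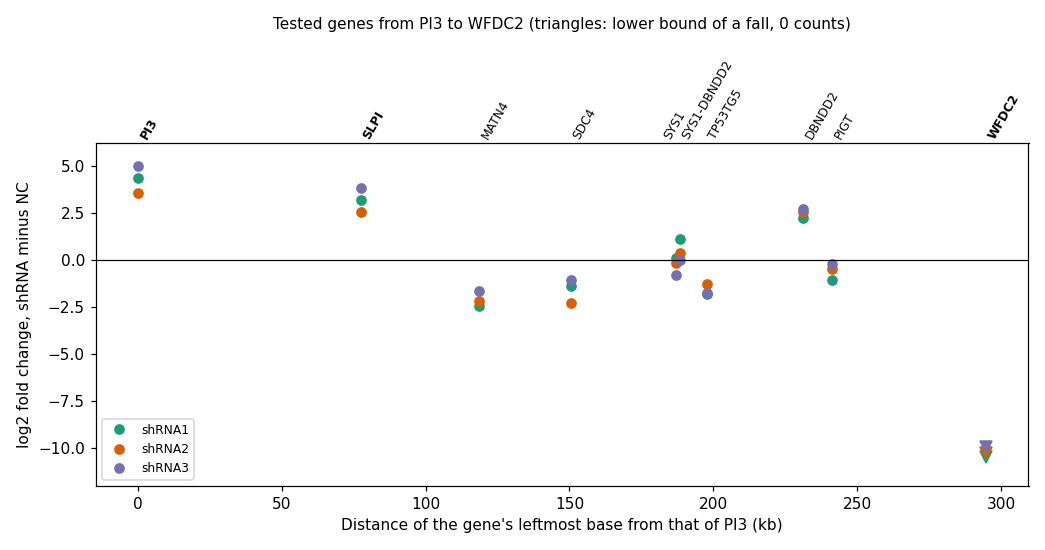
Log2 fold change of each hairpin against NC for the tested genes from PI3 to WFDC2, by distance from PI3 in kb, with the members in bold. PI3 and SLPI are higher with all 3 hairpins, WFDC2 is drawn as triangles at its lower bounds (0 counts), and of the genes between them DBNDD2 rose and MATN4 and SDC4 fell with all 3.

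To compare the genes with one another, CPM was divided by the length of the longest coding transcript. On this per-kb scale LCN2 made up 26.3% of the summed level of the 8 genes in NC, WFDC2 21.6%, C3 20.6% and SAA1 16.0%. CFB followed with 7.25%, SLPI with 4.73%, SAA2 with 3.42% and PI3 with 0.0875%. Under the hairpins SLPI alone made up 89.0% ± 2.59 (shRNA1), 85.5% ± 0.604 (shRNA2) and 85.6% ± 0.764 (shRNA3) of the sum. PI3 had 3.69%, 3.19% and 4.07%, and the other 6 genes shared the rest. The sum itself was 1229 ± 66.1 CPM per kb in NC, 586 ± 237 with shRNA1, 399 ± 11.4 with shRNA2 and 966 ± 387 with shRNA3. The ranges of NC and shRNA3 overlapped, but only through shRNA3 library 2, whose TMM factor was 0.795, and shRNA3 library 3 lay well below NC. The make-up of the 8 genes thus differed between NC and shRNA3, while a like summed level is not shown.

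**Figure D3:**
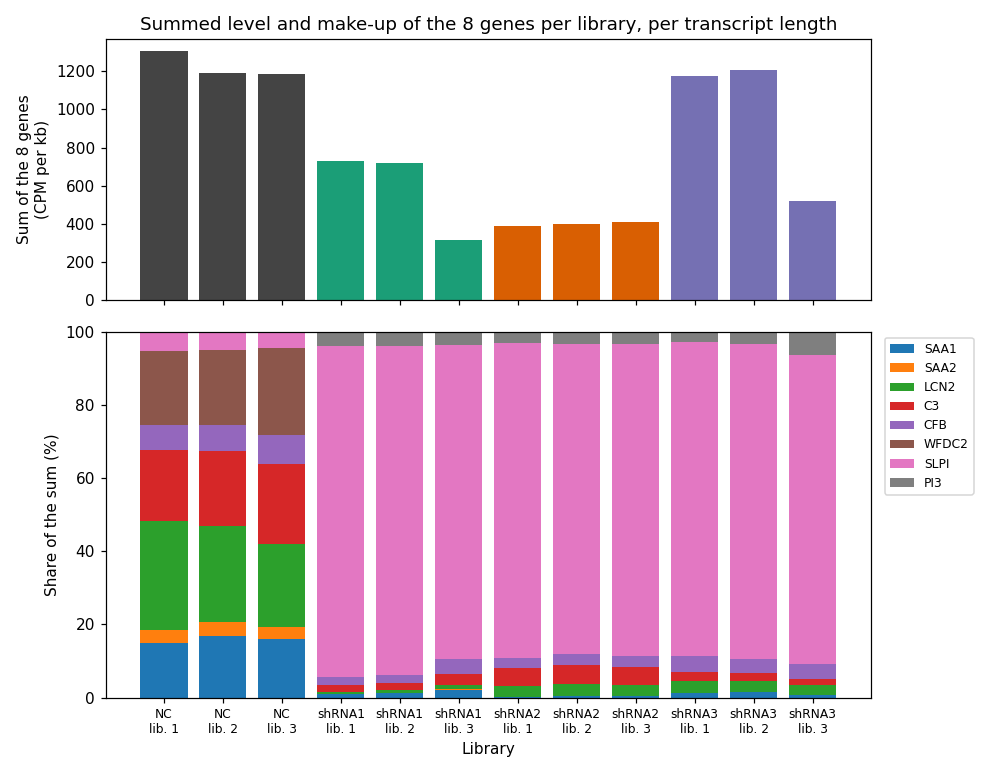
Upper bars give the summed CPM per kb of the 8 genes in each library, and lower bars the share of each gene in that sum in percent. The NC libraries are made up mostly of LCN2, WFDC2, C3 and SAA1, and all 9 shRNA libraries mostly of SLPI.

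Within shRNA3 the members did not differ from library to library in the same way. Library 3 was lower than the mean of libraries 1 and 2 by 5.00 times for SAA1, 10.5 for SAA2, 2.33 for LCN2, 3.57 for C3, 2.34 for CFB and 2.32 for SLPI, but by 1.11 times for PI3. Libraries 1 and 2 had TMM factors of 0.771 and 0.795, against 0.979 to 1.11 in the other 10. Without both of them the shRNA3 log2 fold changes rest on library 3 alone and were -5.95 for SAA1, -7.68 for SAA2, -4.40 for LCN2, -4.91 for C3, -2.08 for CFB and 2.95 for SLPI. Each of these moved by more than 1.5 times from the value over all 3 libraries. Of the other groups, shRNA1 library 3 was lower than its replicates by 2.43 times for SLPI and PI3 and by 1.13 to 2.37 times for SAA1, SAA2, LCN2, C3 and CFB.

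The genes whose pattern was most like each member's were found by Pearson's r of log2(CPM + 1) over the 12 libraries, among 14676 genes with a symbol and a mean of at least 1 CPM. The libraries share their group, so these values describe likeness of profile only. WDFY1 was among the genes most like SAA1 (0.991), and SAA2 was most like COL6A2 (0.999) and APOBEC3G (0.997). LCN2 was nearest to AOX3P (0.995) and WIPI1 (0.994), C3 to PDLIM4 (0.994) and CAT (0.993), and CFB to CGN (0.992) and KLHL7 (0.987). SLPI was nearest to NELFE (0.991) and MYO1E (0.99), and PI3 to IER5L and ALDH9A1 (both 0.988). For WFDC2, PRSS21 and NSUN7 came first with r of 0.99999, and 416 genes reached 0.99, since any gene present in NC and at 0 elsewhere shares its profile. No member was among the 2 genes nearest to another.

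The genes around the members were described by 6 lists, drawn up with earlier results of these data known. The counts, medians and adjusted p-values of these lists are therefore description only. The first holds 36 genes of the signalling that controls acute-phase transcription: cytokines, their receptors, the NF-kB, STAT3 and C/EBP factors, and inhibitors of this signalling such as NFKBIA, SOCS3 and TNFAIP3. Of these, 33 were tested, 4 rose and 8 fell with all 3 hairpins (edgeR's quasi-likelihood test, largest adjusted p 0.0491), and 21 did neither. Both shares are near those over all genes tested, 16% rising and 19.7% falling, so the counts do not set the list apart. The median log2 fold change of the list was -0.36, -0.91 and 0.16 with shRNA1, shRNA2 and shRNA3, against -0.02, -0.05 and -0.03 over all genes tested. Left out in turn, NC library 1 left 5 genes falling and NC library 2 left 4. The falling genes over all genes tested also became fewer, from 3446 of 17532 to 3033 of 18113 and 3053 of 18064.

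IL1R1, the signalling receptor of IL-1, had 369 to 404 counts in the NC libraries and at most 6 in any shRNA library. It passed the filter through NC alone and could hardly be called other than lower. TNF had 324 to 579 counts in NC and at most 6, 2 and 24 with shRNA1, shRNA2 and shRNA3. IL6, the classical inducer of acute-phase genes, fell from 5.83 ± 1.87 CPM to 1.90 ± 0.443 CPM with shRNA1 and had at most 2 counts per library with shRNA2 and shRNA3. Its call was lost without NC library 2 or shRNA1 library 1. RELB, an NF-kB subunit, fell from 63.0 ± 6.54 CPM to 26.1 ± 3.15, 13.9 ± 1.62 and 20.8 ± 4.47 CPM.

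Other genes of the same list rose. IL17RE, a receptor chain for IL-17C, went from 4.46 ± 0.657 CPM in NC to 15.1 ± 1.46, 29.1 ± 1.26 and 39.8 ± 6.52 CPM. TNFRSF1A, the main TNF receptor, went from 83.0 ± 2.89 CPM to 255 ± 10.7, 241 ± 12.3 and 233 ± 14.3 CPM, and NFKB1 from 23.5 ± 1.38 to 81.6 ± 11.2, 85.2 ± 4.35 and 55.6 ± 27.4 CPM. IL6R rose by 1.54, 0.57 and 0.68 on the log2 scale, and its call was lost in 11 of 18 alternatives.

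Of 22 further acute-phase proteins, 9 were tested, 2 rose and 4 fell with all 3 hairpins (edgeR, largest adjusted p 0.0392), beside 16% rising and 19.7% falling over all genes tested. The list had medians of -1.53, -2.06 and -1.19 on the log2 scale. LRG1, a leucine-rich glycoprotein of serum, fell from 177 ± 13.8 CPM to 33.1 ± 5.84, 29.996 ± 0.816 and 33.8 ± 2.89 CPM. SERPINA1, which encodes alpha-1-antitrypsin, fell from 32.9 ± 5.61 CPM to 2.77 ± 0.396, 1.21 ± 0.0238 and 5.56 ± 3.62 CPM. SERPINA3 had 99 to 152 counts in NC and at most 2 elsewhere, and PTX3 had 121 to 188 counts in NC and at most 21, 0 and 2. Both passed the filter through NC alone and could hardly be called other than lower. The count of falling genes thus follows in part from the filter. TIMP1, an inhibitor of matrix metalloproteinases, rose from 55.3 ± 2.96 CPM to 217 ± 37.9, 186 ± 13.4 and 331 ± 111 CPM. CP, which encodes ceruloplasmin, had 1 to 3 counts per NC library and up to 27, 34 and 90 with the hairpins. It passed the filter through hairpin libraries alone and could hardly be called other than higher. Leaving out any NC library, or shRNA1 library 1 or 2, took CP below the threshold and left 1 rising gene.

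Of 31 other complement genes, 22 were tested, 5 rose and 8 fell with all 3 hairpins (edgeR, largest adjusted p 0.0375; 16% and 19.7% over all genes tested), with medians of -0.84, -0.80 and 0.10. C1R and C1S, the proteases of the C1 complex that opens the classical pathway, were among those that fell. C1R went from 234 ± 18.6 CPM to 13.2 ± 2.65, 13.1 ± 1.29 and 28.7 ± 13.9 CPM, and C1S from 139 ± 9.17 to 21.2 ± 3.33, 18.6 ± 1.10 and 29.5 ± 7.66 CPM. Their inhibitor SERPING1 fell as well, from 25.6 ± 2.01 CPM to 2.34 ± 1.04, 1.26 ± 0.394 and 2.64 ± 0.842 CPM. CR2, a receptor for C3 fragments, had 106 to 127 counts in NC and at most 5 elsewhere. CR2, C5 and CFHR3, all among the falling genes, had at most 5 counts in any shRNA library and passed the filter through NC alone. VTN, among the rising genes, had at most 3 counts in NC. Such genes could hardly be called in the other direction, so both counts follow in part from the filter.

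CFD encodes factor D, the protease that cleaves factor B, and it rose where CFB was lower. It went from 1.76 ± 0.446 CPM in NC to 27.6 ± 6.24, 60.1 ± 7.65 and 76.3 ± 32.2 CPM (edgeR log2 fold changes 3.97, 5.09 and 5.43). CD55, which breaks up C3 convertases on the cell's own surface, rose from 69.5 ± 10.3 CPM to 473 ± 42.8, 575 ± 16.0 and 939 ± 410 CPM. C1QBP, a mitochondrial protein that also binds C1q, rose from 134 ± 5.92 to 437 ± 60.3, 488 ± 10.2 and 340 ± 34.2 CPM. C4B went from 3.38 ± 0.625 to 6.02 ± 1.10, 7.92 ± 1.82 and 8.39 ± 2.39 CPM, and lost its call without the filter and without NC library 1, NC library 3 or shRNA1 library 2. Its near-identical copy C4A averaged 7.64 ± 1.20 CPM in NC against 4.30 ± 1.52, 5.91 ± 0.983 and 7.45 ± 2.24 CPM with the hairpins (edgeR adjusted p 0.0439, 0.349 and 0.922), and how the authors' counting split reads between the copies is not given in the sources used here, so the C4B call is uncertain.

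The list of 30 other WAP-domain genes and neighbours at 20q13 had 11 genes tested, 3 that rose and 2 that fell (edgeR, largest adjusted p 0.0372; 16% and 19.7% over all genes tested) and medians of -0.06, -0.16 and -0.30. WFDC3, a further gene of the cluster, rose with SLPI and PI3, from 7 to 12 counts per NC library (0.433 ± 0.137 CPM) to 6.33 ± 1.24, 4.08 ± 0.862 and 12.5 ± 8.32 CPM. WFIKKN1, a WAP-domain gene outside the cluster, had 0 to 7 counts in NC and up to 59, 51 and 60, and its call was lost in 10 of 18 alternatives. DBNDD2 and the 2 falling genes are described above. The count of falling genes was 0 without NC library 2 and 1 without NC library 1 or shRNA3 library 1.

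Among 23 genes whose products the members act on or bind, 11 were tested, 3 rose and 2 fell (edgeR, largest adjusted p 0.0104; 16% and 19.7% over all genes tested), with medians of 0.31, -0.28 and 0.44. PRTN3, which encodes a neutrophil protease that elafin inhibits, had 0 counts in NC and up to 16, 25 and 89 counts with shRNA1, shRNA2 and shRNA3. SCARB1, a lipoprotein receptor that binds serum amyloid A, rose from 109 ± 4.69 CPM to 228 ± 17.6, 259 ± 4.56 and 327 ± 71.4 CPM. ANXA2, a binding partner of SLPI, rose from 1394 ± 112 CPM to 2394 ± 329, 2577 ± 43.1 and 2731 ± 842 CPM. TLR2, a receptor through which serum amyloid A signals, had 148 to 176 counts in NC and at most 1 in any shRNA library. KLK7, the other falling gene, had 39 to 41 counts in NC and at most 9 in any shRNA library. Both passed the filter on low counts through NC alone, and PRTN3 passed through hairpin libraries alone. Such genes could hardly be called in the other direction, so these counts follow in part from the filter.

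Of 27 other secreted antimicrobial proteins, 8 were tested, 1 rose and 6 fell with all 3 hairpins (edgeR, largest adjusted p 0.00145). Over all genes tested, 16% rose and 19.7% fell. Of the 6, PGLYRP4 and S100A7 passed the filter on low counts through NC alone. S100A8 and PIGR had at most 10 and 17 counts in any shRNA library. Such genes could hardly be called other than lower, so the count of 6 follows in part from the filter. The median log2 fold change was -4.83, -6.37 and -4.42, or -4.75, -5.10 and -4.36 with genes at or under 3 counts set to that floor. S100A9, a subunit of the metal-binding calprotectin, fell from 240 ± 27.5 CPM to 4.94 ± 1.69, 1.65 ± 0.339 and 9.67 ± 3.22 CPM. RNASE7, an antimicrobial ribonuclease of skin and mucosa, fell from 60.1 ± 9.36 CPM to 2.74 ± 0.122, 1.47 ± 0.111 and 2.29 ± 0.748 CPM. S100A7 (psoriasin) had 165 to 216 counts in NC and at most 1 elsewhere, and PGLYRP4, a peptidoglycan-binding protein, 94 to 117 counts in NC and 0 elsewhere. DMBT1, a mucosal scavenger glycoprotein, rose from 0.618 ± 0.101 CPM to 10.3 ± 5.46, 6.28 ± 0.702 and 6.21 ± 2.98 CPM.

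**Figure D4:**
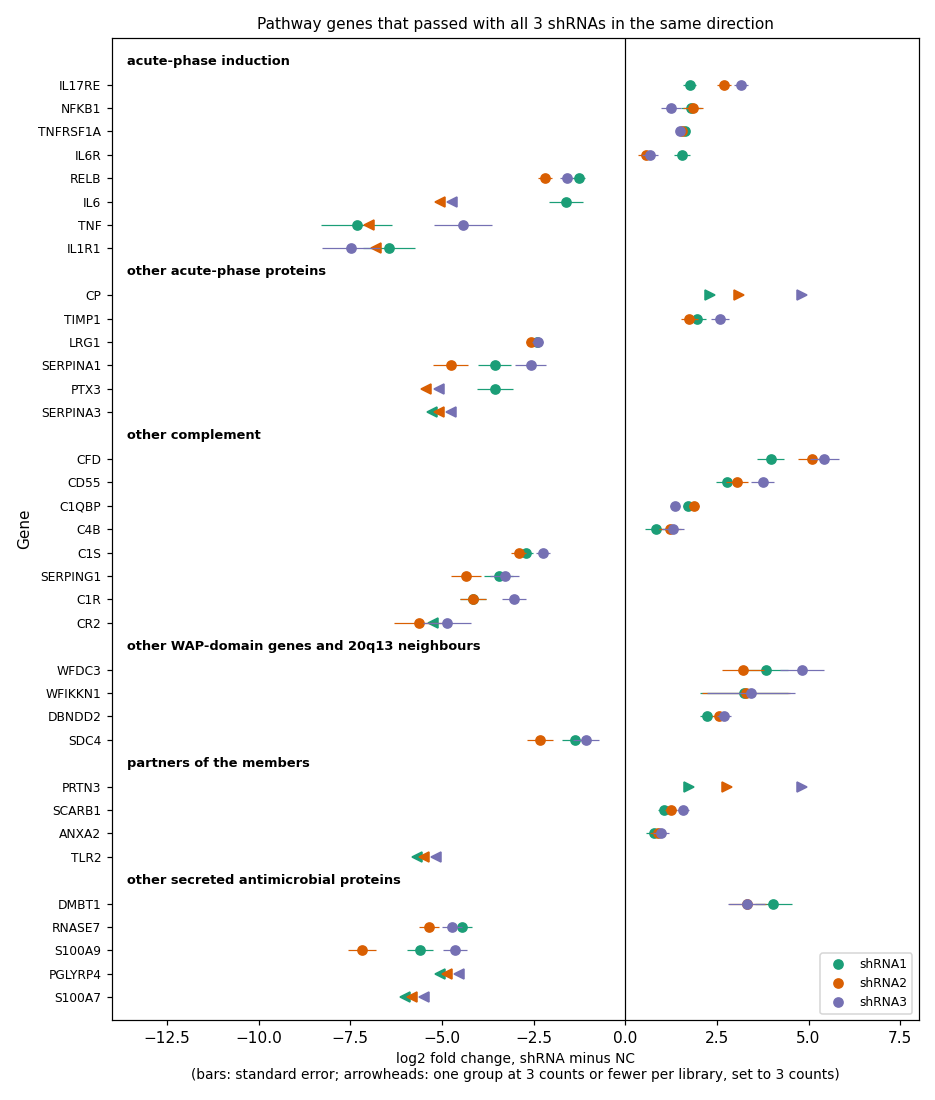
Log2 fold change of each hairpin against NC, with its standard error, for the named genes of the 6 lists that passed with all 3 hairpins in one direction. Arrowheads mark values for which one of the groups compared had 3 counts or fewer in every library and was set to 3 counts; in the antimicrobial list DMBT1 lies to the right of 0 and the other 4 genes lie to the left.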

How the data were processed

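The authors deposited 1 table of estimated counts per gene for 12 libraries, and 13.8% of its values are not whole. The submitters' processing notes for these estimated counts, deposited with differing library totals and so not scaled to a common one, name HISAT2, HTSeq 0.11.2 and GRCh38 without roles. HTSeq's plain counting gives whole numbers, so the program behind these values, its use of strand and its handling of shared reads are not given in the sources used here. The sample titles give each library's group and number.

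Estimated counts were rounded, scaled by TMM and filtered with filterByExpr (minimum count 10, minimum total 15), which left 17532 genes. A single edgeR quasi-likelihood model of the 4 groups (R 4.3.3, edgeR 4.0.16, 8 residual degrees of freedom, common biological coefficient of variation 0.289) gave log2 fold changes against NC. P-values are two-sided, Benjamini-Hochberg adjusted over all genes tested, with a threshold of 0.05. The standard error is the size of the log2 fold change divided by the square root of F. The script was tested on simulated data. The labels do not say that replicates come from separate cultures, so p-values measure the spread between these libraries. Floors and intervals cover only the error of counting, because the labels name no molecular tags and reads may be copies.

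The 8 members and the 6 lists were chosen with earlier results of these data known. The members therefore get no test, and the calls, medians and adjusted p-values of the lists are description only. A gene that passed the filter only through the groups where it is high could hardly be called in the other direction. SERPINA3, PTX3, CR2, C5, CFHR3, IL1R1, MATN4, TLR2, KLK7, CP, VTN and PRTN3 are among these. From each list the text names genes with a mean of at least 1 CPM that passed with all 3 hairpins in one direction, at most 4 rising and 4 falling, ranked by the hairpin that changed them least. MATN4, C5, CFHR3, VTN, KLK7, S100A8, PIGR and C4A, the copy of C4B, were named outside this rule, after their values were seen. So were 3 inhibitors named as list members. For each member the 2 genes of most similar profile are named, except 1 that is not reported here. Symbols were matched for 60463 of the 61044 identifiers. Positions are from GENCODE release 29 (GRCh38), and promoters from RefSeq. From a promoter only bases outside the gene's GENCODE exons, or a stretch of 29 bases, are printed. Alternatives were DESeq2 size factors, the DESeq2 Wald test (DESeq2 1.42.0), CPM of the raw total, no filter, a replicate block, each library left out in turn, and shRNA3 libraries 1 and 2 left out together.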

Additional observations from a re-analysis of the deposited data

How the results depend on the processing

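The 20 log2 fold changes of members kept their direction in all 340 values under 17 alternatives. Of these 340 values, 16 moved by more than 1 SD of the libraries. The counts of 6 members below and 2 above NC held in every alternative run for them. The members were chosen on this contrast and their ranges already lay apart. Leaving out libraries could therefore hardly change these counts or directions, and their holding is no support. Raw-total CPM, which was added for the lists after seeing the data, moved the median log2 fold change of all genes by -0.08, -0.13 and -0.32 for shRNA1, shRNA2 and shRNA3, and the rising share of calls with all 3 hairpins from 44.9% (2808 rising, 3446 falling) to 34.9% (2126 and 3966). No gene called in a list changed sign in an alternative. Falling induction genes numbered 8, but 15 without shRNA3 libraries 1 and 2, where 1 shRNA3 library is assumed to vary like the other groups, and 4 to 11 with 1 library left out. Falling WAP-domain and 20q13 genes numbered 2, but 4 without the filter, 4 with raw-total CPM, and 0 to 3 with 1 library left out. Rising acute-phase proteins numbered 2, and 1 to 3 with 1 library left out. On average no pairing of the libraries by replicate number was seen in deviations of log2 CPM from the group mean of each gene. Between libraries of different groups these deviations correlated at -0.00267 on average for the same number (18 pairs). For different numbers they correlated at 0.00112 (36 pairs). That second value is nearly fixed by the first, because deviations within a group sum to 0. An average over pairs could also hide a pairing between some of the groups. With a replicate block 2629 genes rose and 3307 fell with all 3 hairpins, and no list count moved by over 1.5 times. The block moved the SAA2 log2 fold change for shRNA1 from -6.42 to -6.61. Low counts limit WFDC2, SAA2, SAA1 with shRNA2, PI3 in NC and FMOD, where 3 counts equal 0.145 to 0.222 CPM.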
